A study of Mus musculus with 16 samples.

Results

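Heterotrimeric G proteins carry the signal of G protein-coupled receptors into the cell. An alpha subunit binds GTP when a receptor is activated and separates from a dimer of a beta and a gamma subunit, and both parts act on enzymes and ion channels. Regulators of G protein signalling (RGS proteins) speed the hydrolysis of that GTP and so end the signal. In sensory neurons these proteins stand between opioid, prostaglandin, bradykinin, chemokine and other receptors and the excitability of the cell. The genes described here were all entries of the count files named Gna (with the suffixes i, l, q, s, t and z and the numbers 11 to 15), Gnb1 to Gnb5, Gng with a number, and Rgs with a number. Gna14, Rgs4 and Rgs5 were left out of that rule. It gave 47 of 22609 genes, which are 14 alpha, 5 beta and 10 gamma subunits and 18 RGS genes. Gnao1, the main neuronal alpha subunit of the inhibitory family, does not match the rule and is described with the other genes of the pathway.

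Male mice, 8 to 16 weeks old, gave the lumbar (L3 to L5) dorsal root ganglia. A tracer, fluorescent wheat germ agglutinin, was placed in the paw 16 days after the last injection, ganglia were taken at 18 days, and the labelled cells, taken as neurons by the design text, were sorted by flow cytometry. All mice carried floxed alleles of Ltbr, which encodes the lymphotoxin-beta receptor. The 4 groups of 4 libraries were paclitaxel (PTX) with the Nav1.8-driven Cre recombinase (CKO), PTX with the floxed alleles alone (fl/fl), vehicle with CKO, and vehicle with fl/fl. PTX stands for paclitaxel throughout and not for pertussis toxin. It was given 3 times at 6 mg per kg, 2 days apart. The text on treatment attached to all 16 libraries describes PTX, and the vehicle libraries are those whose treatment label is water. Nav1.8 is the sodium channel of nociceptors, so Cre acts in that part of the neurons and not in glia or blood cells. The design text gives 3 per group where the labels give 4, and the labels leave unsaid whether 1 group's libraries are separate animals, so p-values measure the spread between libraries, which may be technical.

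Libraries held 7906504 to 11668007 gene counts. CPM below means counts divided by a library size corrected with TMM factors, times 1e6. Differences are log2 fold changes with their standard error (SE) from edgeR's quasi-likelihood test over 14200 genes, with Benjamini-Hochberg adjusted p-values and a threshold of 0.05. Ltbr had 5.88 to 28.4 CPM in PTX CKO libraries, against 6.06 to 15.6 CPM in PTX fl/fl libraries, and 32.3 to 98.9 CPM in vehicle CKO libraries, against 42.4 to 51.4 CPM in vehicle fl/fl libraries. The CKO and fl/fl ranges of this targeted gene overlapped under both treatments, and CKO libraries held both the highest and the lowest value under each. Of 15 sensory neuron markers in the files, all 15 rose in PTX libraries, and their summed share of gene counts was 0.844 to 2.25% in PTX libraries and 0.0883 to 0.704% in vehicle libraries. The 12 neutrophil markers, none of them at 0 in any library, summed to 0.03155 to 11.7% in PTX libraries and 7.56 to 19.25% in vehicle libraries, with none of 12 past the test. Of 11 myelinating Schwann cell markers 10 fell (0.173 to 0.310% in PTX and 0.507 to 0.927% in vehicle libraries), as did 8 of 12 satellite glia, 8 of 13 macrophage and 7 of 9 tested fibroblast markers. The fibroblast markers had a median log2 fold change of -3.53 and summed to 0.0160 to 0.116% in PTX and 0.0673 to 0.955% in vehicle libraries. The share of alignments on no feature averaged 17.9% in PTX and 22.1% in vehicle libraries, and the ambiguous share was 0.325 to 0.423% in PTX and 0.262 to 0.324% in vehicle libraries, without overlap. Their part in the results was not tested. The part of the cell types in the results below was tested only through the marker covariates named with them. In bulk RNA, fewer cells of a type and less RNA per cell cannot be told apart. Titles carry dates, a pair for PTX and another pair for vehicle libraries, so date and treatment cannot be told apart, while each date holds 2 libraries of each genotype label.

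The members together took 0.4805 to 0.905% of gene counts in PTX libraries and 0.3346 to 0.478% in vehicle libraries, ranges that did not overlap. Of the 47 members, 39 passed the filter on low counts. Of these, 17 changed in PTX against vehicle libraries over both genotype labels (8 libraries each), while 16.7% of all genes tested did. The 12 that rose were Gnas, Gnal, Gnaz, Gnaq, Gna11, Gnb1, Gnb4, Gnb5, Gng2, Gng3, Rgs8 and Rgs17 (background 10.6% higher), and the 5 that fell were Gnai2, Gnai3, Gng5, Gng11 and Gng12 (background 6.19% lower). The median log2 fold change of the 39 was 0.75, beside 0.01 over all genes tested. With the mean of the sensory neuron markers as a covariate 0 of the 17 passed, with that of the glial and Schwann cell markers 0, and with that of the neutrophil markers 4 (Gnal, Gnb1, Gng3 and Gng12). Over all 14200 genes tested, 0, 0 and 589 passed with these covariates, in that order, beside 2378 without a covariate. Without the 4 PTX libraries of the earlier date 2 passed (Gnal and Gng12), and without the 4 of the later date 26 of 41 tested members did. Over all genes, 224 of 14702 passed without the earlier date and 4244 of 14891 without the later date.

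**Figure D1:**
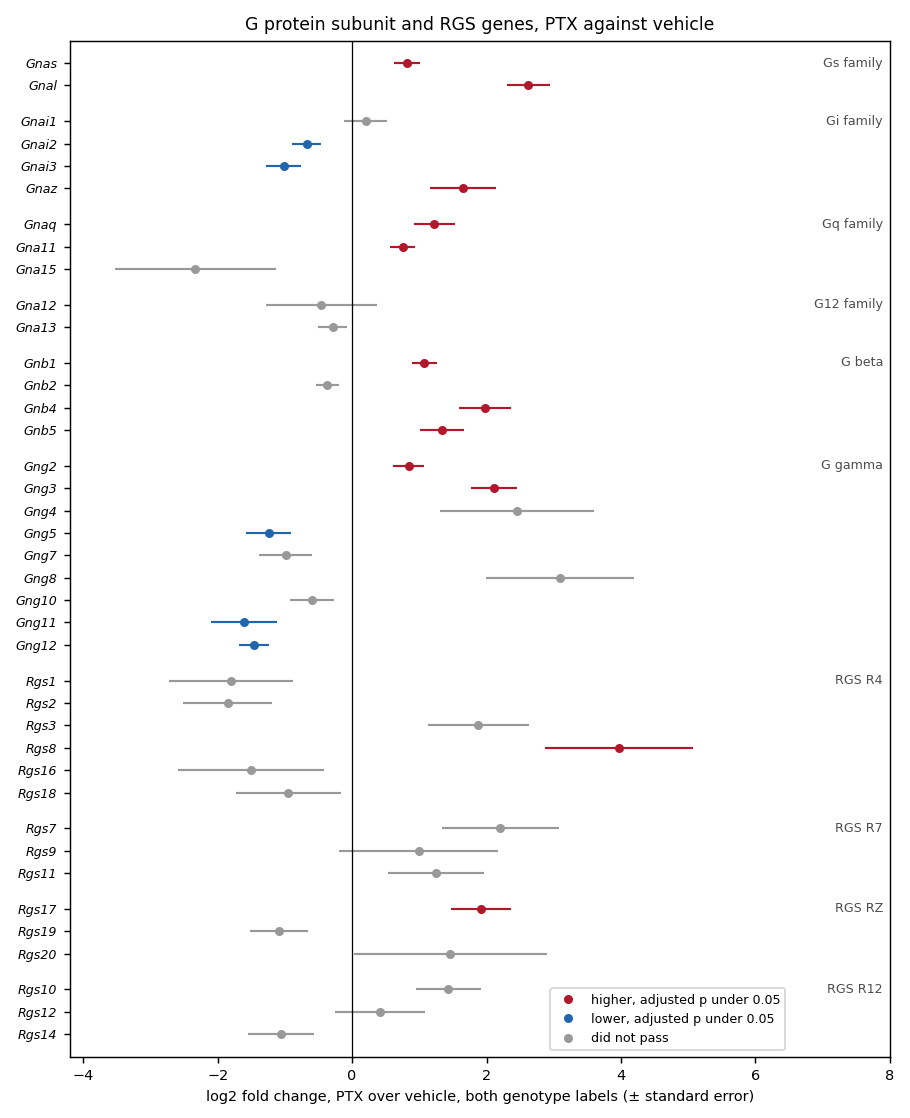
Log2 fold change of the 39 tested members, PTX over vehicle libraries (8 each), with its standard error as a horizontal bar and members grouped by role down the page. Red points lie right of 0 and passed the threshold (12 members), blue points lie left of 0 and passed (5 members), and grey points did not pass.

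The stimulatory alpha subunits, which activate adenylyl cyclase, both rose. Gnal encodes the alpha subunit named for olfactory neurons, which also serves striatal neurons. It had 401, 653, 250 and 223 CPM in the PTX CKO libraries, 715, 584, 271 and 238 CPM in the PTX fl/fl libraries, 46.3, 57.2, 51.9 and 88.2 CPM in the vehicle CKO libraries, and 52.1, 45.3, 119 and 81.8 CPM in the vehicle fl/fl libraries. Each PTX library lay above each vehicle library, and Gnal rose by 2.62 (SE 0.322) on the log2 scale, a 6.16-fold difference with an edgeR adjusted p of 0.00016. Its value was 2.65 in CKO and 2.60 in fl/fl libraries, and it passed in both (adjusted p = 0.0108 and 0.00732 in edgeR). Without vehicle CKO library 2 it missed the threshold in CKO. Gnas, the ubiquitous stimulatory alpha subunit, had a lowest, median and highest level of 651, 1116 and 1357 CPM in PTX libraries, against 463, 530.3 and 776 CPM in vehicle libraries. The ranges overlapped over both labels, though not within CKO or within fl/fl, and the log2 fold change was 0.82 (SE 0.191, edgeR adjusted p = 0.00839). Exons of Gnal share 7.63% of their bases with Mppe1 and those of Gnas 14.2% with Gm20721 and 9.52% with Nespas, all on the opposite strand, and the strand setting of the counting is not given in the sources used here. Mppe1 itself had a log2 fold change of -0.52 (edgeR adjusted p = 0.351).

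Members of the inhibitory alpha family, which lower cyclic AMP, moved in opposite directions. Gnai2, the inhibitory subunit abundant in blood and many other cells, had 161, 244 and 385 CPM (lowest, median, highest) in PTX libraries, against 262, 419 and 487 CPM in vehicle libraries. The groups overlapped and Gnai2 fell by 0.67 (SE 0.217, edgeR adjusted p = 0.0426), a call that was lost when any of 10 of the 16 libraries was left out. Gnai3, a close relative with broad expression, had 79.3, 138 and 205 CPM in PTX libraries, against 140.1, 301 and 379 CPM in vehicle libraries, and fell by 1.02 (SE 0.255, edgeR adjusted p = 0.0127). With the neuron marker covariate its value turned to 0.035. Gnaz, whose protein is found mainly in neurons and platelets and is not a substrate of pertussis toxin, had 34, 91.1 and 124 CPM in PTX libraries, against 2.24, 24.9 and 71.9 CPM in vehicle libraries. It rose by 1.65 (SE 0.493, edgeR adjusted p = 0.0305), and the call was lost when any of 7 libraries was left out. Gnai1 did not pass, with a log2 fold change of 0.20 (SE 0.317). Of the sensory transducins of eye and tongue, Gnat1 had counts in 1 library, Gnat2 in 2, and Gnat3 in none of 16. A count of 0 allows up to 0.0188 CPM over the 16 libraries, at 3 counts and for counting error only.

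Among the members, the alpha subunits that activate phospholipase C-beta are Gnaq, Gna11 and, in blood cells, Gna15. Gnaq had 205, 367 and 706 CPM in PTX libraries, against 80.3, 187 and 257.5 CPM in vehicle libraries, and rose by 1.22 (SE 0.306, edgeR adjusted p = 0.0128). Gna11 had 92.1, 124 and 147 CPM in PTX libraries, against 51.6, 69.4 and 95.1 CPM in vehicle libraries, and rose by 0.75 (SE 0.19, edgeR adjusted p = 0.0135). For both, the highest vehicle libraries reached into the PTX range. Gna15 had a median of 0.749 CPM in PTX libraries and 15.4 CPM in vehicle libraries but spread from 0 to 16.6 and from 0 to 30.9 CPM, and its log2 fold change of -2.34 (SE 1.197) missed the threshold (edgeR adjusted p = 0.191). The remaining alpha subunits, Gna12 and Gna13, gave -0.46 (SE 0.82) and -0.29 (SE 0.22), neither past the threshold. Gna13 was the more abundant of that pair, with 98.4 ± 24.3 CPM in PTX and 124 ± 48.8 CPM in vehicle libraries (SD, n = 8 each).

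Among the beta subunits, 3 of the 4 tested rose, beside 10.6% of all genes tested, and Gnb2 gave -0.37 (SE 0.173, edgeR adjusted p = 0.155). Gnb1, the most abundant member of all, had 1636, 2110.3, 1185 and 1003 CPM in the PTX CKO libraries, 2246, 2238, 1388 and 1311 CPM in the PTX fl/fl libraries, 692, 650.3, 804 and 816 CPM in the vehicle CKO libraries, and 806, 682, 852 and 897 CPM in the vehicle fl/fl libraries. The lowest PTX library stood above the highest vehicle library, and Gnb1 rose by 1.08 (SE 0.189), 2.11-fold, with an edgeR adjusted p of 0.00132. Gnb4 had 91.1, 183 and 466 CPM in PTX libraries, against 23.2, 56 and 99.2 CPM in vehicle libraries, and rose by 1.98 (SE 0.389, edgeR adjusted p = 0.00281). One PTX CKO library, number 4, lay below the highest vehicle library. Gnb5, the beta subunit that binds RGS proteins of the R7 class instead of a gamma subunit, had 45.8, 107 and 134 CPM in PTX libraries, against 17.1, 28.4 and 64.5 CPM in vehicle libraries, and rose by 1.34 (SE 0.33, edgeR adjusted p = 0.0118). Its exons share 10.6% of their bases with Gm19531 on the opposite strand. Gnb3, of cone photoreceptors, had 82 counts in all, over 5 libraries.

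**Figure D2:**
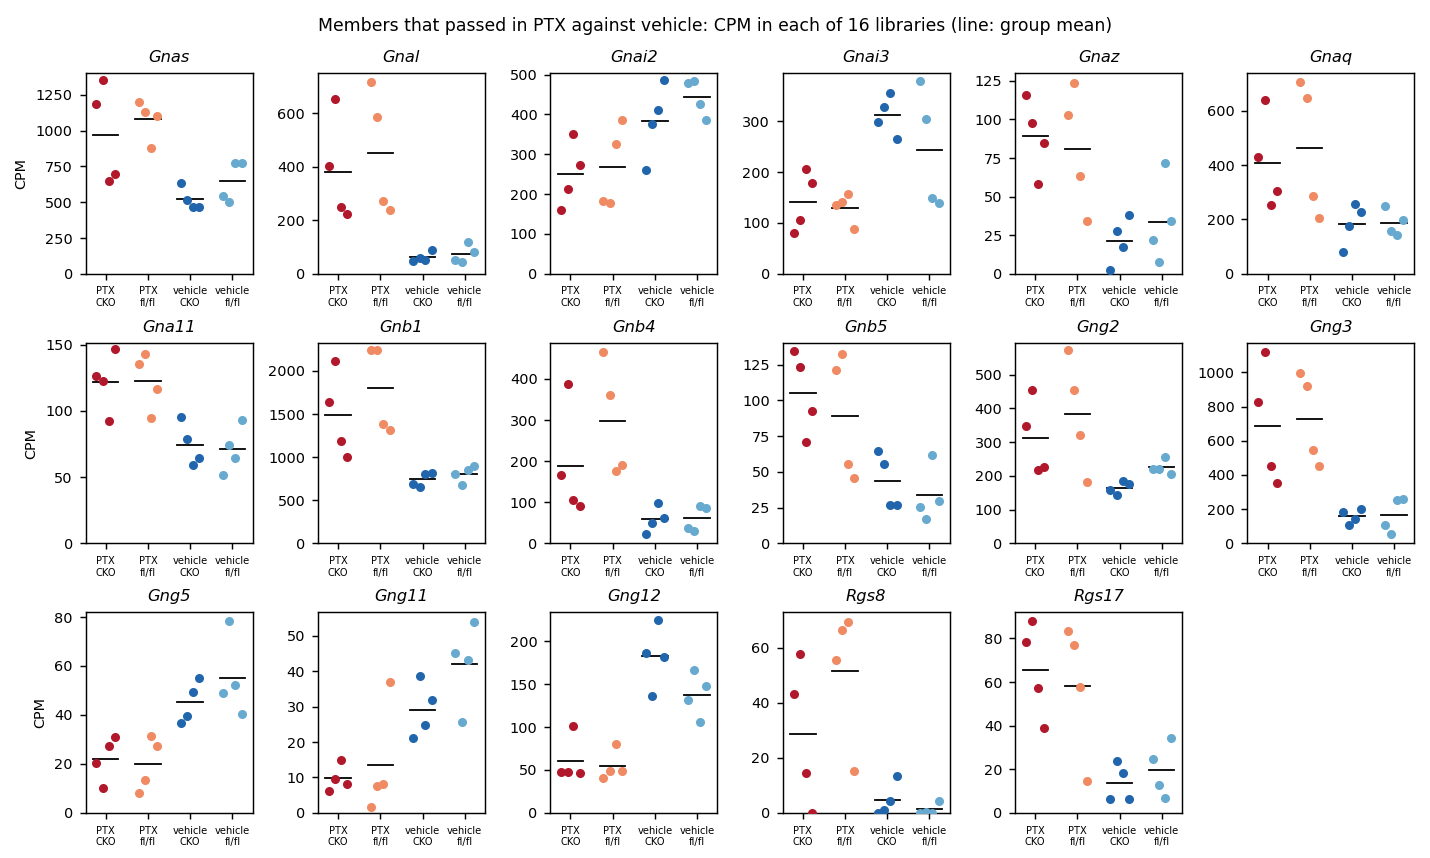
CPM (linear axis from 0) of the 17 members that passed in PTX against vehicle, 1 panel a gene, with 1 point for each of 16 libraries in 4 groups and a line at the group mean. For Gnal, Gnb1, Gng3, Gng5 and Gng12 no PTX point reaches the range of the vehicle points.

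Gamma subunits split into members that rose and members that fell, and with 9 tested members this family held 3 of the 5 members whose PTX and vehicle ranges did not overlap (4.38% of all genes tested did not overlap). Gng3, the gamma subunit of neurons, had 828, 1120.2, 452 and 352 CPM in the PTX CKO libraries, 995, 918, 547 and 455 CPM in the PTX fl/fl libraries, 186, 108, 144 and 201 CPM in the vehicle CKO libraries, and 106, 52.8, 254 and 261 CPM in the vehicle fl/fl libraries. It rose by 2.11 (SE 0.344), 4.32-fold, with an edgeR adjusted p of 0.000797, and passed in CKO (2.11) and in fl/fl (2.11) alone. Its exons share 24.2% of their bases with Bscl2 on the opposite strand, which also rose (1.26, SE 0.256, edgeR adjusted p = 0.00354). Gng2, widespread in brain and ganglia, had 183, 335 and 573 CPM in PTX libraries, against 142, 194.5 and 256 CPM in vehicle libraries, and rose by 0.84 (SE 0.226, edgeR adjusted p = 0.0183). With the glial and Schwann cell covariate the value of Gng2 was -0.117. Its exons share 20.4% of their bases with Gm48283 on the opposite strand.

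Gng12, a broadly expressed gamma subunit, had 47.8, 47.7, 101 and 46 CPM in the PTX CKO libraries, 40.2, 48.9, 80.8 and 49.4 CPM in the PTX fl/fl libraries, 187, 136, 225 and 182 CPM in the vehicle CKO libraries, and 131, 167, 106 and 148 CPM in the vehicle fl/fl libraries. It fell by 1.46 (SE 0.227), to 0.363 of the vehicle level, with an edgeR adjusted p of 0.00057. It also passed in CKO (-1.59) and in fl/fl (-1.33). Gng5, likewise broadly expressed, had 20.5, 10.1, 27.4 and 30.8 CPM in the PTX CKO libraries, 7.97, 13.5, 31.5 and 27.3 CPM in the PTX fl/fl libraries, 36.8, 39.5, 49.2 and 55 CPM in the vehicle CKO libraries, and 48.9, 78.4, 52.3 and 40.2 CPM in the vehicle fl/fl libraries. All PTX libraries lay below all vehicle libraries, and Gng5 fell by 1.24 (SE 0.334, edgeR adjusted p = 0.0188). Gng11 had 1.74, 8.19 and 36.8 CPM in PTX libraries, against 21, 35.2 and 54 CPM in vehicle libraries. It fell by 1.61 (SE 0.49, edgeR adjusted p = 0.0336), a call lost without any of 8 libraries, and PTX fl/fl library 4 lay among the vehicle libraries.

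The gamma subunits that did not pass were Gng4 (2.45, SE 1.142), Gng8 (3.10, SE 1.101), Gng7 (-0.98, SE 0.393) and Gng10 (-0.59, SE 0.329), with edgeR adjusted p-values of 0.0636 to 0.226. Gng8, known from olfactory neurons, had 2.64 to 17.9 CPM in PTX libraries and 0 to 7.57 CPM in vehicle libraries. In CKO libraries alone its ranges did not overlap, with 3.19 to 17.9 CPM in PTX and 0 to 1.35 CPM in vehicle libraries. The value of Gng10 is uncertain, since 79.4% of its exon bases also belong to the predicted gene Gm20503 on the same strand. Gng13, of taste and retinal cells, had 8 counts in all.

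Per kilobase of exon (CPM divided by the length of the union of exons in GENCODE M21, another annotation than that of the counts), Gng3 made up 71.3 ± 5.36% of the summed level of the 10 gamma members in PTX libraries and 33.0 ± 10.4% in vehicle libraries (SD, n = 8 each). These shares ran from 62.2 to 78.1% in PTX and from 14.0 to 44.7% in vehicle libraries. The shares of Gng12 (1.06 to 5.21% in PTX and 6.51 to 19.3% in vehicle libraries), Gng5 (0.358 to 3.23% and 3.84 to 12.3%) and Gng10 (3.58 to 6.11% and 7.84 to 27.3%), in the same order of groups, did not overlap either. Gng2 took 13.3 ± 2.02% in PTX and 15.6 ± 3.45% in vehicle libraries (SD, n = 8 each). Shares sum to the whole, so the fall of one and the rise of another are not separate measurements.

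**Figure D3:**
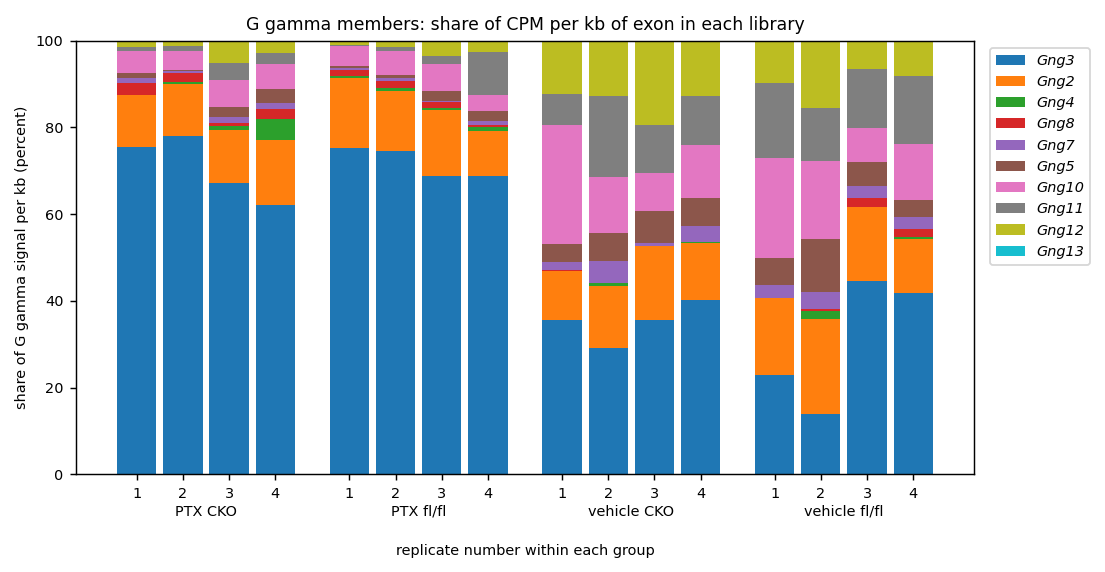
Share of each gamma member (percent of the family's summed CPM per kilobase of exon, stacked) in each of 16 libraries, PTX groups left of vehicle groups. Gng3, at the bottom, fills 62.2 to 78.1% of each PTX column and 14.0 to 44.7% of each vehicle column.

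The order of levels within the other families, again per kilobase of exon, was led by the same gene in both treatments for the alpha and beta subunits. Gnai2 headed the alpha members with 113 ± 37.8 CPM per kilobase in PTX and 180 ± 32.9 in vehicle libraries (SD, n = 8 each). In PTX libraries it was followed by Gnas (98.9 ± 24.6), Gnaq (76.9 ± 35.8), Gnai3 (41.7 ± 13.4), Gnal (37.3 ± 18.3) and Gna11 (35.8 ± 5.97), each no further from the next than the larger of their SDs. In vehicle libraries Gnai3 came next (85.1 ± 27.4), then Gnas (56.3 ± 12.5), Gnaq (32.9 ± 10.5) and Gna11 (21.3 ± 4.6), while Gnal stood in place 10 (6.07 ± 2.36). There Gnai2 and Gnai3, and Gnas and Gnaq, lay further apart than the sum of their SDs. Gnal took 4.79 to 12.2% of the alpha family's level per kilobase in PTX libraries and 0.903 to 2.6% in vehicle libraries. Among beta members Gnb1 took 82.0 ± 1.39% in PTX and 78.1 ± 2.65% in vehicle libraries (SD, n = 8 each). Gnb2 was in place 4 of 5 in PTX libraries and place 2 in vehicle libraries, with shares of 3.3 to 7.46% and 10.0 to 16.4%.

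Promoters are shown for Gnb1 and Gng3, which rose, and Gng5 and Gng12, which fell, all without overlap of PTX and vehicle ranges. Gnal also rose without overlap, but its promoter is not shown. The windows run from 250 bases before to 50 after the annotated start (RefSeq, GRCm38.p6, a build other than that of the counts). They lie at chr4:155491111-155491410 (Gnb1, plus strand), chr19:8839197-8839496 (Gng3, minus strand), chr3:146499586-146499885 (Gng5, plus strand) and chr6:66896147-66896446 (Gng12, plus strand, the upstream of its 2 windows). Capitals mark matches, on either strand, to the GC box GGGCGG, the only one of 4 motifs searched that these windows hold.
Gnb1: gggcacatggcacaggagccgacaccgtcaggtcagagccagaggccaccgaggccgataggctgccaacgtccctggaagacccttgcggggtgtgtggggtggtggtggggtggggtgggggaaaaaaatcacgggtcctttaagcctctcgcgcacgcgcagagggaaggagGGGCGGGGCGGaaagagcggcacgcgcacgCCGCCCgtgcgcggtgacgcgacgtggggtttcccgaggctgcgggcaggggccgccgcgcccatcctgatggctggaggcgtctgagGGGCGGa
Gng3: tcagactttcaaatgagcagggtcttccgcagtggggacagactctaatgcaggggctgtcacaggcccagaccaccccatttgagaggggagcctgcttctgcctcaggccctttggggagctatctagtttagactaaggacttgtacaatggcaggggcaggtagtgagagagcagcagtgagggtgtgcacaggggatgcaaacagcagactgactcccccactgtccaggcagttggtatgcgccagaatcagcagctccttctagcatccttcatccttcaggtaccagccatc
Gng5: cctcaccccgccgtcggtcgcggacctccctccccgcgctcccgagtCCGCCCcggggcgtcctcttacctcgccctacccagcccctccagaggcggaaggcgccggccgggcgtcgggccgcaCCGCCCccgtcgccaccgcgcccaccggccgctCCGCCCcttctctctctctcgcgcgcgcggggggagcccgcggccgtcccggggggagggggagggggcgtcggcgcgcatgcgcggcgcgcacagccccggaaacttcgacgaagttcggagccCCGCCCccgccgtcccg
Gng12: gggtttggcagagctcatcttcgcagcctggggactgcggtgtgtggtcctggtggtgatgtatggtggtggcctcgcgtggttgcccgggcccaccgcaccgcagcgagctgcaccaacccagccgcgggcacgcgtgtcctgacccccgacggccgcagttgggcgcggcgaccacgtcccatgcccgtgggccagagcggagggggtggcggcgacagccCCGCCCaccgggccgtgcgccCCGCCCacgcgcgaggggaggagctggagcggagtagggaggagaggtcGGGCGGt
The GC box was present 4 times in the Gnb1 window, 4 times in that of Gng5 and 3 times in the Gng12 window shown, and was absent from that of Gng3. It was also absent from the other Gng12 window, at chr6:66896641-66896940. Windows were found for 34 of the 47 members. Of their 47 windows 27 (57.4%) held GGGCGG, beside 35.7% of 32851 windows of all genes, and 7 (14.9%) held TATAAA, beside 13.6%. The cyclic AMP response element TGACGTCA was in 0 of 47 member windows and in 1.79% of all windows. The NF-kB motif, searched with 2 open positions, was in 2 member windows, those of Gnai3 and Rgs13, and in 1.47% of all. These matches describe the letters of the windows and carry no statement on binding.

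The RGS genes had larger spreads. Of 15 tested, 2 rose and none fell in PTX against vehicle libraries, which is 13.3% called, beside 16.7% of all genes tested. Rgs8, a member of the small R4 class known from Purkinje and other neurons, had 0.119, 49.5 and 69.5 CPM in PTX libraries, against 0, 0.787 and 13.4 CPM in vehicle libraries, and rose by 3.97 (SE 1.098, edgeR adjusted p = 0.0212). The PTX CKO libraries held 43.1, 57.7, 14.4 and 0.119 CPM, so 1 of them was among the vehicle values, and in fl/fl libraries, with 55.8, 66.5, 69.5 and 15.1 CPM in PTX and 0.0823 to 4.4 CPM in vehicle, the groups did not overlap. Rgs17, of the RZ class that acts on Gz and other inhibitory alpha subunits, had 14.5, 67.4 and 87.9 CPM in PTX libraries, against 6.17, 15.6 and 34.2 CPM in vehicle libraries, and rose by 1.91 (SE 0.443, edgeR adjusted p = 0.00814). Only PTX fl/fl library 4 lay within the vehicle range.

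The other R4 members were Rgs1, Rgs2, Rgs3, Rgs16 and Rgs18. Rgs2, which prefers the Gq family as its target, had 1.18, 45.6 and 197 CPM in PTX libraries, against 142, 262 and 372 CPM in vehicle libraries, with a log2 fold change of -1.85 (SE 0.661, edgeR adjusted p = 0.0679). Rgs1, known from lymphocytes and other immune cells, gave -1.80 (SE 0.919, edgeR adjusted p = 0.193), with 0.0984 to 80.1 CPM in PTX and 18.8 to 149 CPM in vehicle libraries. In CKO libraries alone the PTX and vehicle ranges of Rgs1 and of Rgs2 did not overlap. Rgs3 gave 1.88 (SE 0.748), Rgs16 gave -1.51 (SE 1.088) and Rgs18 gave -0.95 (SE 0.783), none past the threshold, and Rgs13 had no count in 16 libraries.

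In the R7 class, whose proteins are stable only with Gnb5, no tested member passed. Rgs7 had 7.21, 34.4 and 45 CPM in PTX libraries, against 0, 5.73 and 14.3 CPM in vehicle libraries, with a log2 fold change of 2.21 (SE 0.872, edgeR adjusted p = 0.0924). Rgs11 gave 1.25 (SE 0.718) and Rgs9 gave 0.99 (SE 1.177), while Rgs6 had 152 counts over 5 libraries and was not tested. In the RZ class Rgs19 gave -1.09 (SE 0.43, edgeR adjusted p = 0.0914) and Rgs20 gave 1.46 (SE 1.436). In the R12 class Rgs10, a small protein of neurons and immune cells, had 45.2, 156 and 330.1 CPM in PTX libraries, against 9.32, 55.2 and 111 CPM in vehicle libraries, and its log2 fold change of 1.43 (SE 0.483) just missed the threshold, at an edgeR adjusted p of 0.0516. Rgs12 and Rgs14, which carry a second binding motif for inhibitory alpha subunits, gave 0.41 (SE 0.675) and -1.06 (SE 0.487). Rgs22 had 7 counts in all, in 1 library. Per kilobase of exon, Rgs10 led the RGS members in PTX libraries (52.3 ± 21.4% of their sum) and Rgs2 in vehicle libraries (26.9 ± 5.16%, SD, n = 8 each). The share of Rgs2 was 0.172 to 17.9% in PTX and 19.7 to 31.9% in vehicle libraries, without overlap, while its CPM ranges overlapped. Here too the shares sum to the whole, so those of Rgs2 and Rgs10 are not separate measurements.

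Within each genotype label fewer members passed. In CKO libraries 3 of 39 did (Gnal and Gng3 higher, Gng12 lower), beside 2.58% of all genes tested (2.22% higher, 0.359% lower), and 16 members had groups that did not overlap, beside 13.5% of all genes. In fl/fl libraries 5 did (Gnal, Gnb1, Gnb4 and Gng3 higher, Gng12 lower), beside 4.94% (3.18% higher, 1.76% lower), with 11 members not overlapping, beside 18.8%. Gnb1 and Gnb4 gave 1.00 and 1.68 in CKO libraries, with edgeR adjusted p-values of 0.0535 and 0.102, and 1.15 and 2.28 in fl/fl libraries, with 0.0215 and 0.0273. The calls depended on single libraries, as did those over all genes. The count was 1 in CKO without PTX CKO library 1 or 2 or vehicle CKO library 2 or 3, and without vehicle CKO library 2 it was none of the 3. In fl/fl it was 1 without PTX fl/fl library 1 or 2 or vehicle fl/fl library 1, and 2 without vehicle fl/fl library 2. Over all genes, calls in CKO fell from 366 to 68 and 30 without PTX CKO libraries 1 and 2. They fell to 36 and 97 without vehicle CKO libraries 2 and 3. In fl/fl, calls over all genes fell from 701 to 177 and 206 without PTX fl/fl libraries 1 and 2. They fell to 263 and 307 without vehicle fl/fl libraries 1 and 2. The difference between the labels was tested as the interaction, in which 0 of 39 members passed (0.00704% of all genes did).

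Comparing CKO with fl/fl libraries asks whether the floxed receptor gene, deleted in Nav1.8 neurons by design, alters these genes. No member passed over both treatments (0.00704% of all genes did), under PTX (0.0%) or under vehicle (0.0211%), and DESeq2 and limma-voom also called 0 members. Over all 14200 genes, DESeq2 called 46 over both treatments, 10 under PTX and 83 under vehicle, and limma-voom called 0 in each. At an unadjusted p under 0.05 the edgeR counts of members were 0 over both treatments (3.3% of all genes), 0 under PTX (1.87%), 2 under vehicle (4.61%) and 0 in the interaction (3.35%). Those 2 were Gna13 and Gng8. Gna13 had 109.9, 215, 168 and 127 CPM in vehicle CKO libraries, against 122, 109, 56.6 and 85.1 CPM in vehicle fl/fl libraries, with a log2 fold change of 0.73 (SE 0.313) and an edgeR adjusted p of 0.994. Gng8 had 1.35, 0, 0 and 0 CPM in vehicle CKO libraries, against 0.109, 1.17, 7.57 and 6.9 CPM in vehicle fl/fl libraries (log2 fold change -3.50, SE 1.597). Both pairs of groups overlapped.

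Gng2 was the only member whose vehicle groups did not overlap, with 158, 142, 184 and 177 CPM in vehicle CKO libraries, against 220.2, 219.8, 256 and 205 CPM in vehicle fl/fl libraries, where 2.49% of all genes had no overlap. Its log2 fold change there was -0.45 (SE 0.318) with an edgeR adjusted p of 1.0, and under PTX the groups overlapped (-0.30, SE 0.317). Next by p under vehicle came Gnai1 (-0.93, SE 0.451). Under PTX the smallest p-values belonged to Gng7 (0.71, SE 0.553), Gnb4 (-0.67, SE 0.533) and Gnb1 (-0.28, SE 0.264), and in the interaction to Gng8 (3.98, SE 2.11), Rgs8 (-2.71, SE 1.992) and Rgs11 (1.85, SE 1.426). The members that changed most clearly with PTX had small interaction values, 0.05 (SE 0.607) for Gnal, -0.01 (SE 0.66) for Gng3 and -0.26 (SE 0.444) for Gng12, with standard errors too large to show that the labels acted alike.

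The PTX libraries of the 2 title dates stood apart. Of the 39 tested members, 15 were lower in each of the 4 later libraries than in each of the 4 earlier ones (12.7% of all genes were) and 6 were higher (9.75% were). In vehicle libraries 0 were lower and 1, Gnb4, was higher (0.754% and 1.94% of all genes). The 6 higher on the later PTX date were Gnai2, Gna15, Gng5, Rgs1, Rgs2 and Rgs18. Rgs18, known from platelets and other blood cells, had 31.8 to 43.4 CPM in later PTX libraries, against 1.14 to 4.33 CPM in earlier PTX libraries, with 4.71 to 103 CPM over all vehicle libraries. Rgs1 had 8.7 to 80.1 CPM in later and 0.0984 to 2.99 CPM in earlier PTX libraries, and Rgs2 had 56.3 to 197 CPM in later and 1.18 to 34.9 CPM in earlier ones. The neutrophil marker share was 5.63 to 11.7% of counts in later PTX libraries and 0.0316 to 1.06% in earlier ones, and its part in these differences was not tested.

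The 15 lower on the later PTX date were Gnas, Gnal, Gnaz, Gnaq, Gna12, Gnb1, Gnb5, Gng2, Gng3, Gng8, Gng10, Rgs3, Rgs7, Rgs10 and Rgs17. Of these, 9 were among the members that rose in PTX against vehicle libraries. Gng3 had 352 to 547 CPM in later PTX libraries, against 828 to 1120.2 CPM in earlier ones, and both stood above the 52.8 to 261 CPM of the vehicle libraries. Gnaq had 205 to 306 CPM in later PTX libraries, against 428 to 706 CPM in earlier ones, and the later range met the vehicle range of 80.3 to 257.5 CPM. Rgs10 had 45.2 to 149 CPM in later and 163 to 330.1 CPM in earlier PTX libraries. Sensory neuron markers made up 0.844 to 1.18% of counts in later and 1.81 to 2.25% in earlier PTX libraries, which was not tested either. Gng12 and Gng11 overlapped between the dates.

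**Figure D4:**
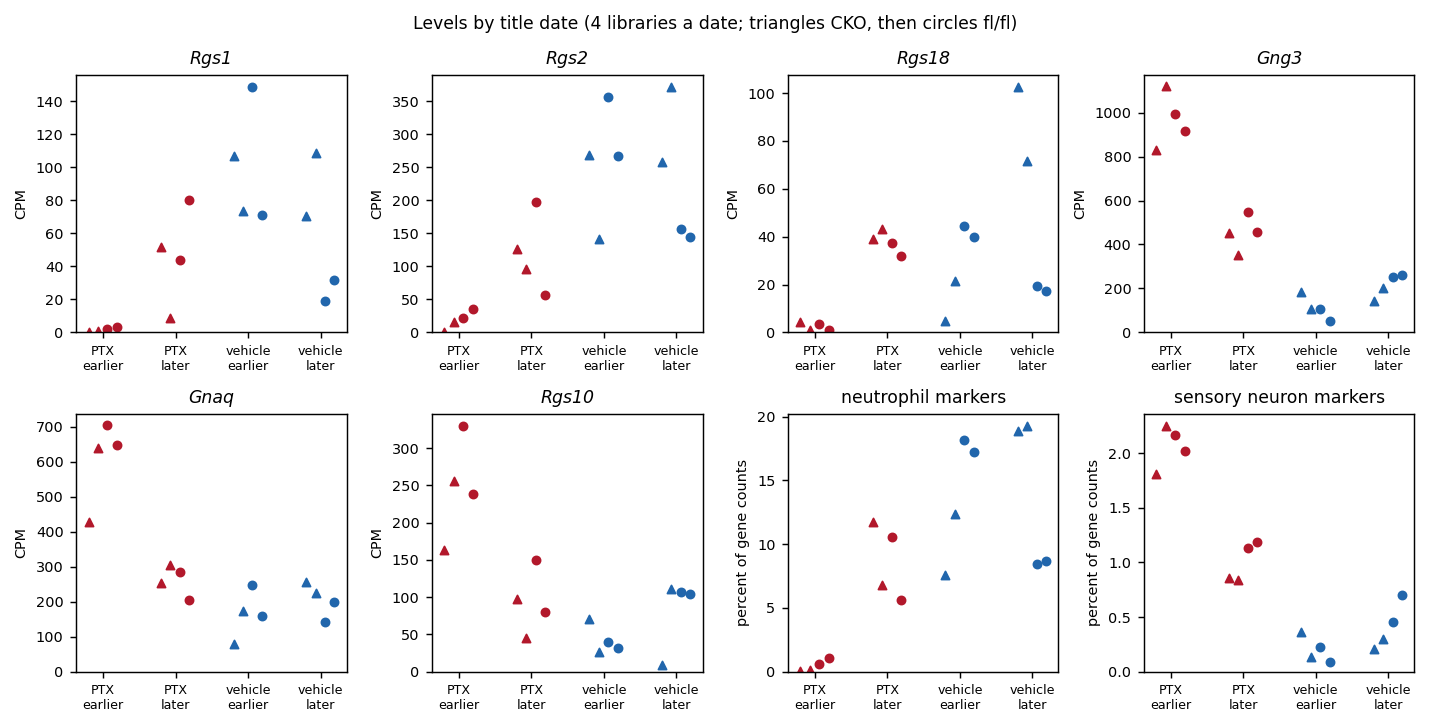
CPM of 6 members, and percent of gene counts for neutrophil and sensory neuron markers, by treatment and title date, with 1 point for each of 4 libraries a date (triangles CKO, circles fl/fl, axes from 0). Rgs1, Rgs2, Rgs18 and the neutrophil markers are higher in all later than in all earlier PTX libraries, and Gng3, Gnaq, Rgs10 and the neuron markers are lower.

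With the sensory neuron marker mean as a covariate, 12 of the 12 members that rose kept a positive value, with a median of 0.35 in place of 1.5, and 4 of the 5 that fell kept a negative one. The largest values left were those of Rgs17 (1.64), Gnal (1.14), Gng11 (-1.18) and Gng12 (-1.18). With the neutrophil marker covariate the medians were 0.962 for those that rose and -0.756 for those that fell, and all 17 kept their direction. With the glial and Schwann cell covariate the medians were 1.0 for those that rose, of which 11 of 12 stayed positive, and -0.63 for those that fell. Under it Gnb5 (1.73), Gna11 (0.97), Gng12 (-1.66) and Gnai3 (-1.20) lay further from 0 than without a covariate. Between treatments the neuron marker means had no overlap, so this covariate takes up much of the treatment difference itself. Schwann cell marker means, which enter the glial covariate, did not overlap either, while satellite glia marker means did. Those of the Schwann cell markers were 4.946 to 6.159 log2 CPM in PTX and 7.408 to 8.127 in vehicle libraries. With either covariate 0 of 14200 genes passed, so a call lost with it does not show what the call rested on. No member value under either covariate passed the threshold.

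**Figure D5:**
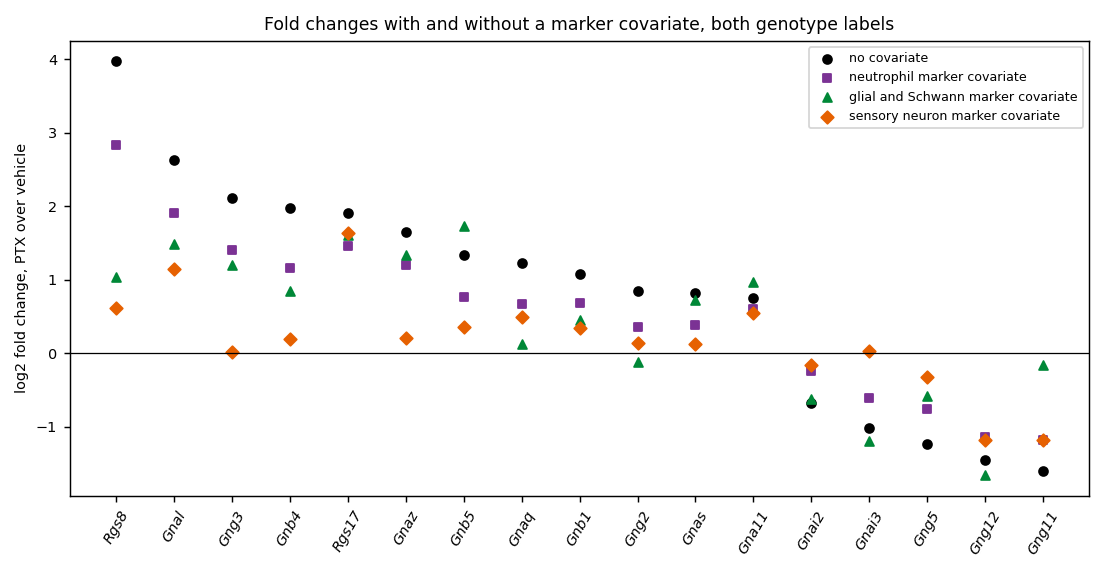
Log2 fold change, PTX over vehicle libraries, of the 17 members that passed, without a covariate (circles) and with the neutrophil (squares), glial and Schwann cell (triangles) or sensory neuron (diamonds) marker mean in the model. All 17 values lie nearer 0 with the neuron covariate than without a covariate, among them Gng12 at -1.18 and Rgs17 at 1.64.

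Other genes that act on or next to these proteins were taken from a list of 46 (among them adenylyl cyclases, phospholipase C-beta, GIRK channels, receptor kinases and arrestins, chaperones and exchange factors, protein kinase A and Gnao1), of which 40 were tested. In PTX against vehicle libraries 12 rose and 1 fell, which is 32.5% called, beside 16.7% of all genes tested (10.6% higher, 6.19% lower), with a median log2 fold change of 0.42 beside 0.01 over all genes. Gnao1, the abundant inhibitory alpha subunit of neurons, had 245, 481 and 897 CPM in PTX libraries, against 25, 77.1 and 157 CPM in vehicle libraries, without overlap, and rose by 2.67 (SE 0.409, edgeR adjusted p = 0.000527). Rgs7bp, which anchors the R7 RGS and Gnb5 complex at the membrane, had 172 to 524.5 CPM in PTX and 24.1 to 165 CPM in vehicle libraries and rose by 2.30 (SE 0.367, edgeR adjusted p = 0.000691). Both also passed within CKO and within fl/fl libraries. Plcb3, a phospholipase C driven by Gq and by the beta-gamma dimer, had 177 to 930 CPM in PTX and 69 to 166.5 CPM in vehicle libraries and rose by 2.18 (SE 0.376).

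Of the 6 protein kinase A genes, which act downstream of cyclic AMP, 4 rose, beside 10.6% of all genes tested. Of the 9 adenylyl cyclases tested, 1 rose. Prkar1b, a regulatory subunit of neurons, had 563, 779.6 and 1191 CPM in PTX libraries, against 56.5, 129 and 332 CPM in vehicle libraries, and rose by 2.45 (SE 0.358, edgeR adjusted p = 0.000391). Prkar2a and Prkar2b rose by 1.27 (SE 0.235) and 1.48 (SE 0.331), and Prkacb, a catalytic subunit, by 0.73 (SE 0.235). The arrestins, which bind receptors that have been phosphorylated, moved apart. Arrb1 had 68.4, 189 and 229 CPM in PTX libraries, against 49.4, 72 and 109.6 CPM in vehicle libraries, and rose by 1.16 (SE 0.257, edgeR adjusted p = 0.00635). Arrb2 had 11.5, 31 and 90.1 CPM in PTX libraries, against 67.3, 112 and 150 CPM in vehicle libraries, and fell by 1.44 (SE 0.391, edgeR adjusted p = 0.0198). Arhgef11 rose by 1.33 (SE 0.295), and Ric8, a chaperone of alpha subunits, by 0.98 (SE 0.322). Kcnj3, a channel subunit opened by the beta-gamma dimer, also passed, with 0 to 8.25 CPM in PTX libraries and a count in 1 vehicle library (0.415 CPM), as did the adenylyl cyclase Adcy8, with 0 to 7.57 CPM in PTX libraries and a count in 1 vehicle library (0.576 CPM).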

How the data were processed

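RNA of sorted dorsal root ganglion cells was sequenced as 50-base single ends from stranded poly(A) libraries, per the labels' protocols. The submitters' processing notes name bcl2fastq, TopHat2, HTSeq and the build mm9, with no versions, and the strand setting is not given in the sources used here. As deposited, each file holds the authors' raw counts for 22609 genes and 5 summary lines, not normalized. Those lines held 13.73 to 25.39% of alignments on no feature and 39.54 to 44.18% not unique, and stayed out of library sizes.

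Genes were filtered with filterByExpr (14200 left), scaled by TMM and fitted in 1 model of 16 libraries with edgeR 4.0.16 (robust quasi-likelihood test, two-sided, 12 residual degrees of freedom, common biological coefficient of variation 0.939) in R 4.3.3. SE was derived from the fold change and its F statistic. The comparisons were PTX against vehicle and CKO against fl/fl, each pooled and within the other factor, and their interaction. Other settings tried were scaling by RLE or upper quartile, no filter, 5 CPM in 4 libraries, limma-voom with quality weights (limma 3.58.1), DESeq2 1.42.0, a block for replicate number or title date, the compared groups alone, marker means as covariates, no earlier PTX date, and each library left out. The fit without the later PTX date was added after seeing the data. The script was tested on simulated counts.

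The members and lists were chosen with earlier results of these data known. Named were members past the threshold anywhere, the 2 most abundant members of each role class, the 3 smallest p-values in each genotype comparison, members with few counts, and up to 10 pathway genes by p with Gnao1. Ric8, Prkacb and Adcy8 were named beyond that after their values were seen, so that all 13 pathway genes that passed stand in the text, as were members added for their role. Among 24 pairs of libraries within groups none held the same values, and chi-square per degree of freedom was at least 19.5. Under PTX, same-numbered CKO and fl/fl libraries correlated at 0.429, 0.481, 0.468 and 0.233, and the block changed no member call there. In both labels numbers 1 and 2 carry the earlier PTX date and numbers 3 and 4 the later one. Same-numbered libraries thus also share a date, and the part of the date in these correlations was not tested.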

Additional observations from a re-analysis of the deposited data

Results flagged for a closer look

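Of 120 groups of 4 libraries examined among the named members, 10 held a library whose gap to the nearest other library exceeded Dixon's 95% critical share of the group's range. Chance flags about 1 in 20 such groups if values are normally distributed, which was not tested for these CPM. A group with counts in only 1 library, as for Rgs22 and Gng8 below, is flagged whatever its level. In PTX CKO library 3, Gng12 had 101 CPM beside 46 to 47.8 CPM in the other 3, and Rgs1 had 51.8 CPM beside 0.0984 to 8.7 CPM. In PTX CKO library 4, Rgs11 had 39.3 CPM beside 12.4 to 15.5 CPM. In the PTX fl/fl group, Gna13 had 138.5 CPM in library 4 beside 75 to 80.6 CPM, and Rgs14 had 41.3 CPM in library 3 beside 18.8 to 21.7 CPM. In the vehicle CKO group, Rgs7 had 14.3 CPM in library 3 beside 0 to 1.25 CPM, and Gng8 had 1.35 CPM in library 1 beside 0. In vehicle fl/fl library 4, Gnai1 had 126.5 CPM beside 41.8 to 48.8 CPM, Rgs8 had 4.4 CPM beside 0.0823 to 0.468 CPM, and Rgs22 had 0.582 CPM beside 0.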

How the results depend on the processing

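Scaling by RLE or upper quartile, no filter and the stricter filter kept the same 17 members called in PTX against vehicle over both labels, the same 5 in fl/fl and the same 3 in CKO. The counts over both labels, in fl/fl and in CKO were 30, 24 and 20 by limma-voom (which also moved the median of all genes over both labels to 0.284), 25, 10 and 8 by DESeq2, 11, 0 and 0 with the replicate block, 0, 0 and 0 with the neuron covariate, 0, 0 and 0 with the glial covariate, 4, 4 and 0 with the neutrophil covariate, 2, 0 and 0 without the earlier PTX date, and 26, 14 and 16 without the later one. Over all 14200 genes tested, 2378, 701 and 366 passed in the fit reported above. By limma-voom 6461, 5283 and 2686 did, by DESeq2 3500, 1517 and 1331, and with the replicate block 1228, 0 and 2. The neuron covariate left 0, 0 and 2, the glial covariate 0, 0 and 0, and the neutrophil covariate 589, 443 and 12. Without the earlier PTX date 224, 4 and 0 of 14702 genes passed, and without the later one 4244, 1923 and 2077 of 14891. Same-numbered libraries were not correlated over 0.1 in every pair for these comparisons, so the replicate block there rests on numbers only. Both fits without a PTX date hold fewer libraries, and the cause of the changed counts was not tested for any setting. Leaving out each library gave 14 to 21, 1 to 7 and 1 to 5 calls among members. Over all genes these fits gave 1544 to 2661, 177 to 845 and 30 to 549 calls, in the same order. The direction turned for Gnai3 (0.035) and Gng3 in CKO (-0.042) with the neuron covariate and for Gng2 (-0.117) with the glial covariate. No member was called by genotype or in the interaction under any alternative. Over all 14200 genes DESeq2 called 46, 10 and 83 by genotype (both treatments, PTX, vehicle) and 50 in the interaction. With 1 CPM worth 7.83 to 12.15 counts, members under about that level rest on few counts. The replicate block changed no other call.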
